A study of Mus musculus with 4 samples.

Results

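Blood clots when a cascade of liver proteases ends in thrombin, which cuts soluble fibrinogen into fibrin. This account covers 10 genes of that system: *Fga*, *Fgb* and *Fgg*, which encode the α, β and γ chains of fibrinogen, the vitamin K dependent zymogens *F2* (prothrombin), *F7*, *F9* and *F10*, the cofactor *F5*, the zymogen *F11*, and *Plg* (plasminogen), the precursor of the protease that dissolves fibrin. They were chosen by gene name in the array annotation, and hold 14 of 55681 probes and 10 of 36161 gene names. *Fga*, *F5*, *F7* and *F10* had 2 probes each and the other 6 genes had 1. The only *Plg* probe carried the non-uniformity flag of the scanner software on the CF array, so it was left out of the counts, which rest on 9 genes and 13 probes.

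Whole liver RNA of C57BL/6J mice, labelled as embryonic day 20, was hybridized to 4 arrays, one each for MF (microsomic females), CF (control females), MM (microsomic males) and CM (control males). In the study, microsomic (M) mice are newborns of low weight and controls (C) are littermates of normal weight; neither group carries a transgene or received an agent. The strain and stage are those of the labels, and the paper speaks of newborn mice of the N substrain. Whether an array holds RNA of 1 animal or a pool is not stated. A single array per group gives no measure of variation among animals, so no p-value is given for a pair of arrays. The paper describes replicate experiments for each group, whereas 1 array per group was analysed here. In bulk liver fewer hepatocytes cannot be told apart from less RNA per hepatocyte.

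Levels are log2 signals set against the 75th percentile of their own array, and a difference is called past 1.5-fold, which is 0.58 on this scale. The share of spots well above background was 56.1% to 65.3%. MF had 916 spots flagged as non-uniform, against 182 on CF, 130 on MM and 136 on CM. It also had 22 saturated spots, against 1, 0 and 1. The part of array quality in values that stand apart on MF was not tested. Repeated spots of bright probes give a technical spread (SD) for a difference of 0.329 between MF and CF and 0.275 between MM and CM, which covers spotting and scanning alone. It takes the median variance over 81 probes, which weighs the noisier ones less than a mean would. The mean variance over 256 probes well above background, dimmer ones included, gave larger SDs within an array. These were 0.33 on MF, 0.37 on CF, 0.27 on MM and 0.41 on CM, against 0.22, 0.25, 0.17 and 0.21. The M arrays lay in one column of the slide and the C arrays in the other, so position and condition cannot be told apart. Of the 19 hepatocyte secreted proteins measured, 19 were well above background on all 4 arrays. A summed level is the log2 of the sum of the linear levels of a list, so its brightest genes weigh most. Heart muscle genes were higher on CF than on MF past 1.5-fold for 10 of 11 (summed level 7.84 on CF, 1.42 on MF, 1.63 on MM and 2.81 on CM). Over all genes, 21.1% were lower on MF than on CF. Between MM and CM, 7 of 10 heart muscle genes were lower on MM and 1 was higher (median log2 difference -1.73), against 23.1% and 17.7% of all genes. Intestinal epithelium genes were higher past 1.5-fold on MF than on CF for 10 of 13 (median log2 difference 4.38), against 19.9% of all genes. Their summed level was 8.06 on MF, 7.16 on CF, 7.14 on MM and 7.01 on CM. *Tff3*, the brightest of them, was 7.40 on MF and 7.05 on CF and weighs most in that sum. *Alpi*, *Cdx2* and *Cdh17*, picked after their values were seen, were well above background only on MF. The part of heart or intestinal RNA in the values below was not tested.

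Fibrinogen is made in hepatocytes from 3 linked genes, and each chain is needed for the secreted hexamer. The 3 genes lie next to each other on chromosome 3, with *Fgb* on the other strand. The probes that carry the largest differences among the chains are shown as they are printed on the array (mm9, NCBI37), with capitals in the lower pair marking the 30-base stretch where they are most alike, 17 of 30 bases identical in an ungapped placement of 53 bases with 28 identical.
Fga, A_51_P193813, chr3:82835678-82835737, plus strand: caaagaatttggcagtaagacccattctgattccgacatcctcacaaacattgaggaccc
Fga, A_55_P2123381, chr3:82837260-82837319, plus strand: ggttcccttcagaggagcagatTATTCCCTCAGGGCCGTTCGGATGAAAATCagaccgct
Fgb, A_51_P428483, chr3:82846334-82846393, minus strand: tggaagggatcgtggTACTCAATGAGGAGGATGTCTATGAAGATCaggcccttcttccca

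The second *Fga* probe starts 1582 bases downstream of the first and is annotated to another transcript of the gene. For *F10* and *F7* the pairs of probes matter in another way. The brighter *F10* probe resembles a dispersed repeat: it shares words of 20 bases with probes of 10 other gene names, which only 0.318% of all probes do, and with 58 RefSeq promoters of 57 genes. Its bases 6 to 35 are shown, with capitals on a word of 20 bases that occurs in 24 of these promoters, beside the other *F10* probe, which shares no such word. The *F7* probe below shares its last 30 bases, in capitals, with the first 30 bases of the other *F7* probe, so the pair is not independent.
F10, A_55_P2106078, part of chr8:13056119-13056178, plus strand: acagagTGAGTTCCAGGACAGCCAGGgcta
F10, A_51_P174961, chr8:13055774-13055833, plus strand: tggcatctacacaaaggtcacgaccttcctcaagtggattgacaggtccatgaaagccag
F7, A_55_P2045040, chr8:13035257-13035316, plus strand: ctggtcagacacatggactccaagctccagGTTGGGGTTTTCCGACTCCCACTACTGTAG

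All 14 probes were well above background on all 4 arrays and no spot was saturated. The dimmest member value, that of *F9* on MF, still lay at percentile 85.5 of its array. Each gene below is taken by its brightest probe unless both are given, and levels of different probes are not ranked against each other.

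**Figure D1:**
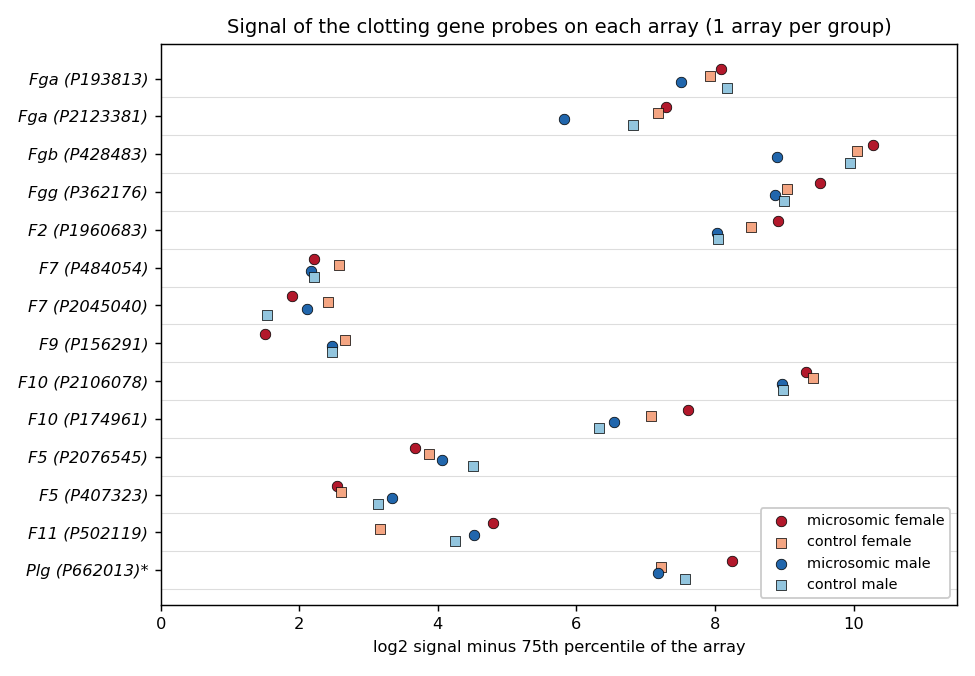
Level of each probe (log2 signal minus the 75th percentile of the array, horizontal axis) on the 4 arrays, circles for microsomic and squares for control animals, with 1 array per group and no error bars. *Fgb* was lowest on MM at 8.90, *F9* was lowest on MF at 1.504, and *F11* was lowest on CF at 3.16; the asterisk marks *Plg*, whose spot was flagged on CF.

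The β chain gene *Fgb* was measured at 10.29 on MF, 10.05 on CF, 8.90 on MM and 9.95 on CM. The MM array stood apart below the other 3, so that *Fgb* was 2.06-fold lower on MM than on CM (log2 difference -1.05) and differed by 0.24 between MF and CF. The male difference is larger than 2 times the technical spread of a typical bright probe, 0.551. Without a second male array of either kind the spread between animals is unknown. It was -0.45 after quantile normalization, -0.47 with normexp correction, -0.49 without scaling and -0.50 with a trend over the array removed, all within 1.5-fold. The small female difference turned to -0.08 and -0.21 under the first pair of these settings. Low MM values were also seen outside fibrinogen. Of 19 hepatocyte secreted proteins, 5 were lower and 1 higher past 1.5-fold between MM and CM (median -0.24). Over all genes, 23.1% were lower and 17.7% higher. The 3 brightest of these proteins differed by -0.33 (*Alb*), -1.12 (*Trf*) and -0.01 (*Apoa2*).

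The α chain gene *Fga* showed the same order for MM. Its first probe read 8.08 on MF, 7.93 on CF, 7.51 on MM and 8.18 on CM, and the probe 1582 bases downstream read 7.29, 7.18, 5.81 and 6.82. MM was again the lowest array with both, and the MM to CM difference was -0.67 with the first probe (1.59-fold lower) and -1.01 with the second (2.01-fold lower). In females the same probes differed by 0.15 and 0.11. The first probe's male value was within 1.5-fold after centring on the median (-0.43), after quantile normalization (-0.51) and without scaling (-0.11), and reached 0.20 once normexp correction was combined with quantile normalization. In females that probe turned to -0.63 with quantile normalization and -0.89 with normexp correction added, so neither the sign nor the call of *Fga* held in both sexes under these settings.

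The γ chain gene *Fgg* was 9.51 on MF, 9.04 on CF, 8.87 on MM and 8.998 on CM. As reported it did not follow the other chains in males, where its difference was -0.13. In females it was 0.47 higher on MF, within 1.5-fold. The male value was 0.29 with quantile normalization, 0.34 with normexp correction added and 0.43 without scaling. With a trend over the array removed it was -0.40, beside -1.15 for *Fga* and -0.50 for *Fgb*. The gap between the chains thus depended on the processing. Across settings the female value ran from -0.20 (quantile normalization) to 0.87 (no scaling). In the reported setting, 0 of the 3 chains were past 1.5-fold between MF and CF, and *Fga* and *Fgb* were past it, lower, between MM and CM.

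The fibrinogen promoters are shown because the chains sit side by side and are known to be induced together in the acute phase response. The windows are the 250 bases before the RefSeq start (GRCm38.p6), with capitals on matches, on either strand, to an HNF1 word (GTTAAT), the interleukin-6 response element (CTGGGAA) or a C/EBP site (TTGCNNAA).
Fga, chr3:83025903-83026152, plus strand: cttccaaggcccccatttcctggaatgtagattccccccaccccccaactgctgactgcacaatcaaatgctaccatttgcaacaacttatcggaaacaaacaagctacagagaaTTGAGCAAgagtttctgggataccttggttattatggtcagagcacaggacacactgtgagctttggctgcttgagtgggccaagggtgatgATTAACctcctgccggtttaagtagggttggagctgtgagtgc
Fgb, chr3:83049864-83050113, minus strand: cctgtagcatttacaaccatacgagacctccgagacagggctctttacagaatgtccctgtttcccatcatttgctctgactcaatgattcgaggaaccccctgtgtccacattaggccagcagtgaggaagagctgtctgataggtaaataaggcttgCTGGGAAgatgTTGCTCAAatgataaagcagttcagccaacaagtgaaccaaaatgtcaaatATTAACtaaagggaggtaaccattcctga
Fgg, chr3:83007474-83007723, plus strand: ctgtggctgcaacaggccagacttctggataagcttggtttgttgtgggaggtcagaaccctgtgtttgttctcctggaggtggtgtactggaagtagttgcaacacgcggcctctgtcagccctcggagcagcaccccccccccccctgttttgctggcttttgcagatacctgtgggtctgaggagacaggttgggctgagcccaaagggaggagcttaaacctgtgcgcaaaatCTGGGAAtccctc

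A RefSeq promoter was matched for 9 of the 10 genes, all but *Plg*. The HNF1 word was found in *Fga* and *Fgb* (2 of 9 promoters, against 6.43% of 32851 promoters of the same length), the interleukin-6 response element in *Fgb*, *Fgg* and *F9* (3 of 9, against 9.10%) and the C/EBP site in *Fga*, *Fgb*, *F9* and *F11* (4 of 9, against 9.56%). The matches in *Fgb* start 91, 80 and 29 bases before the start of transcription, in the order response element, C/EBP and HNF1. No promoter of the 9 held the HNF4 word CAAAGTCC (0 of 9, against 1.20%) or TATAAA (0 of 9, against 12.4%). These are matches of letters, not sites shown to be bound.

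Among the vitamin K dependent zymogens, prothrombin (*F2*), the precursor of thrombin, was 8.91 on MF, 8.52 on CF, 8.02 on MM and 8.04 on CM. Both female arrays read above both male arrays, and the difference between M and C was 0.39 in females and -0.01 in males. The male value of *F2* depended on the processing, at 0.93 with normexp correction and -0.86 with the position trend removed. *F9*, the zymogen that is missing in haemophilia B, was 1.504 on MF, 2.65 on CF, 2.47 on MM and 2.48 on CM. MF alone was low, 2.22-fold below CF (-1.15), while the male arrays differed by -0.01 (0.68 with normexp correction). In females *F9* was past 1.5-fold lower on MF in each of the 6 alternatives that changed its value, from -1.496 to -0.75.

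*F7*, the zymogen that tissue factor binds to start clotting, read 2.21 on MF, 2.58 on CF, 2.16 on MM and 2.22 on CM with its brighter probe, and 1.90, 2.42, 2.12 and 1.54 with the overlapping probe. Both probes were highest on CF. The differences were -0.37 and -0.52 in females and -0.05 and 0.58 in males, so that the probes, with 30 bases in common, differed by 0.63 in males. None of the 4 values passed 1.5-fold.

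*F10*, whose protease forms thrombin, was 7.61 on MF, 7.08 on CF, 6.54 on MM and 6.32 on CM with the probe that shares no word with other genes. Here the female arrays were above the male arrays, and M was above C by 0.53 in females and 0.22 in males. The repeat-like probe read 9.31, 9.41, 8.96 and 8.97, with differences of -0.10 and -0.01. The 10 other probes that share its words had a median difference of 1.24 between MF and CF and -0.51 between MM and CM. The *F10* value in the counts comes from the repeat-like probe; with the other probe the number of genes past 1.5-fold remained 2 in each sex.

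The cofactor gene *F5*, which speeds the cleavage of prothrombin by activated factor X, was 3.67 on MF, 3.87 on CF, 4.06 on MM and 4.51 on CM with its brighter probe, and 2.54, 2.61, 3.34 and 3.14 with a probe that spans an intron. Both male arrays were above both female arrays with each probe. The M to C difference was -0.20 and -0.07 in females, and -0.45 and 0.20 in males, where the sign turned between the probes. *F11*, a zymogen activated by thrombin, was 4.80 on MF, 3.16 on CF, 4.52 on MM and 4.25 on CM. CF stood apart as the lowest array: *F11* was 3.12-fold higher on MF than on CF (1.64) and 0.27 higher on MM than on CM. The female difference was between 1.31 and 2.04 in the 6 alternatives that changed it, each past 1.5-fold. CF is also the array with high heart muscle transcripts, and MF, where *F9* was low, is the array with high intestinal transcripts. The part of either in the *F9* and *F11* values was not tested.

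*Plg* read 8.25 on MF, 7.22 on CF, 7.18 on MM and 7.56 on CM, the CF spot being the flagged one. The M to C difference would be 1.02 in females, where it rests on that spot, and was -0.39 in males.

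**Figure D2:**
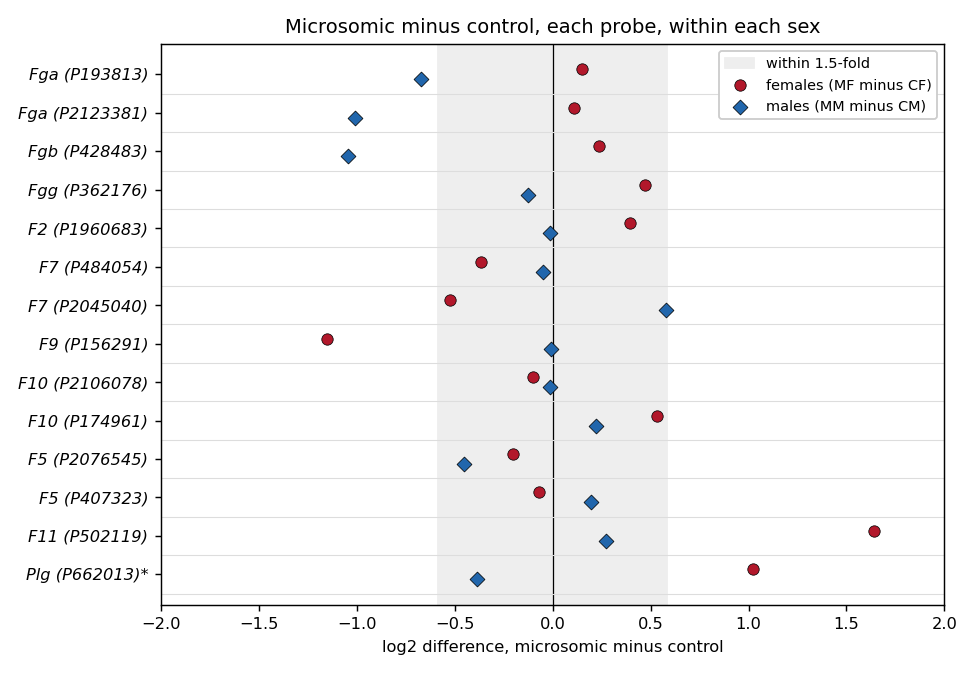
Microsomic minus control log2 difference of each probe (horizontal axis) in females (circles) and males (diamonds), with the range within 1.5-fold shaded; each point is the difference of 2 arrays. *F11* was at 1.64 and *F9* at -1.15 in females, both *Fga* probes and *Fgb* were between -1.05 and -0.67 in males, and the asterisk marks *Plg*, flagged on CF.

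Of the 9 genes, 1 was higher (*F11*) and 1 lower (*F9*) past 1.5-fold on MF than on CF, where 19.9% of 25538 genes were higher and 21.1% lower. The median over the 9 was 0.15, against -0.04 over all genes compared. In males 0 of 9 were higher, against 17.7% of 26315 genes, and 2 of 9 (*Fga* and *Fgb*) were lower, against 23.1%, with a median of -0.05 against 0 over all genes. In both sexes at once 0 of 9 were higher or lower past 1.5-fold, against 3.19% and 3.8% of 23967 genes. The members are bright, and among the 5139 genes at least as bright as the dimmest of them, the shares were 28.7% higher and 13.4% lower between MF and CF, and 13.2% and 11.7% between MM and CM.

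For a change common to both sexes, limma was fitted to the 4 arrays with condition and sex as terms, over 19303 genes, with 1 residual degree of freedom. No gene passed (0 genes with a Benjamini-Hochberg adjusted p under 0.05, smallest 0.964, and 853 genes, 4.42%, with an unadjusted p under 0.05). Among the members, 0 of 9 had an unadjusted p under 0.05. *F11* was nearest, with an M minus C value of 0.96 (SE 0.48, 95% interval -0.17 to 2.08, limma adjusted p = 0.995). For *Fgb* the value was -0.40 (SE 0.47, interval -1.51 to 0.70), so the interval spans falls of over 2-fold and rises of over 1.5-fold alike. These SEs rest on how far the sexes disagree in M minus C and on the variances of the other genes. They do not measure the spread among animals.

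Between the sexes, *F11* (1.09) and *F5* (0.64) were past 1.5-fold higher on CM than on CF, 2 of 9 where 26.6% of genes were higher, and 0 of 9 were lower, where 19.7% were. Between MM and MF, *F9* was higher (0.96), 1 of 9 against 28.9%, and *Fgb* (-1.39), *Fgg* (-0.65) and *F2* (-0.89) were lower, 3 of 9 against 20.5%. These comparisons use the same 4 arrays as those of M with C, so they hold the same low MM value of *Fgb* and the same low CF value of *F11*.

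The wider system was read from 39 further genes of clotting, its inhibitors and fibrinolysis, of which 37 had a probe without a flag. Between MF and CF, 12 of 37 were higher and 5 lower past 1.5-fold, with a median of 0.16; between MM and CM, 7 of 35 were higher and 2 lower, with a median of 0.22. Over all genes the shares were 19.9% higher and 21.1% lower in females, and 17.7% and 23.1% in males, with medians of -0.04 and 0. Among the 5139 genes at least as bright as the dimmest member they were 28.7% and 13.4% in females, and 13.2% and 11.7% in males. The list holds genes on both sides of that brightness. Other clotting factors had 1 of 8 higher and 0 lower in either sex, and the vitamin K cycle and secretion genes 2 of 5 higher and 0 lower in either sex. Anticoagulants had 3 of 10 higher and 2 lower in females, and 1 higher and 1 lower in males. Genes of fibrinolysis had 2 of 6 higher and 1 lower in females, and 3 of 5 higher and 0 lower in males. Genes of the thrombin receptor family, not all of them receptors of thrombin itself, had 2 of 4 higher in females and 0 of 3 in males, with 0 lower. Of these 2, 1 was a lower bound, from a gene well above background on MF alone. Fibrinogen-like genes and related proteases had 2 of 4 higher and 2 lower in females, and 0 higher and 1 lower in males.

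Past 1.5-fold the same way in both sexes were 3 genes of 35, 2 higher and 1 lower, where 3.19% of all genes were higher and 3.8% lower in both. *Serpind1*, which encodes the thrombin inhibitor heparin cofactor II, was 6.77 on MF, 4.68 on CF, 6.09 on MM and 4.84 on CM. Both M arrays were above both C arrays, by 2.09 (4.25-fold) in females and 1.25 (2.38-fold) in males, and both were past 1.5-fold in each of the 6 alternatives that changed them. *Plaur*, the urokinase receptor, was 2.36 on MF, 0.66 on CF, 0.56 on MM and -0.03 on CM, with differences of 1.70 and 0.59, the latter just past the threshold and past it in only 2 of the 6 alternatives that changed it (lowest 0.33). Macrophage genes moved beside it: 6 of 8 were higher and 0 lower on MF than on CF (median 0.69). Over all genes, 19.9% were higher and 21.1% lower there. Between MM and CM, 3 of 8 were higher and 0 lower (median 0.30), against 17.7% and 23.1%. Of these 3, 1 was a lower bound, from a gene not well above background on CM. The summed level of the macrophage genes was 7.56 on MF, 6.23 on CF, 6.34 on MM and 6.07 on CM. Their part in the *Plaur* value was not tested. *Fgl2*, a fibrinogen-like protein with prothrombinase activity, was lower on both M arrays, at -0.48 on MF, 0.37 on CF, 0.04 on MM and 0.84 on CM, with differences of -0.85 and -0.80. It was past 1.5-fold in only 3 of the 6 alternatives that changed the female value (nearest to 0 at -0.30, with the position trend removed) and in 4 of 6 for the male value (nearest at -0.24, without scaling). In the limma fit *Serpind1* was at 1.67 (SE 0.44, limma adjusted p = 0.995) and did not pass.

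Beside *Serpind1*, *F3* and *Serpinf2* were past 4-fold in females, higher on MF, and neither was past 1.5-fold in males by its brightest probe. Tissue factor (*F3*), which starts clotting, was 0.18 on MF, -2.06 on CF, -2.41 on MM and -2.06 on CM, so MF alone stood high, 4.74-fold over CF, and its second probe gave a log2 difference of 2.20. In males the difference was -0.35 with the brighter probe and -0.76, past 1.5-fold, with the second. *Serpinf2* (the plasmin inhibitor α2-antiplasmin) was 8.14 on MF, 6.00 on CF, 6.48 on MM and 6.26 on CM, 4.40-fold higher on MF than on CF. MF is the array with the high intestinal transcripts, and their part in both values was not tested.

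**Figure D3:**
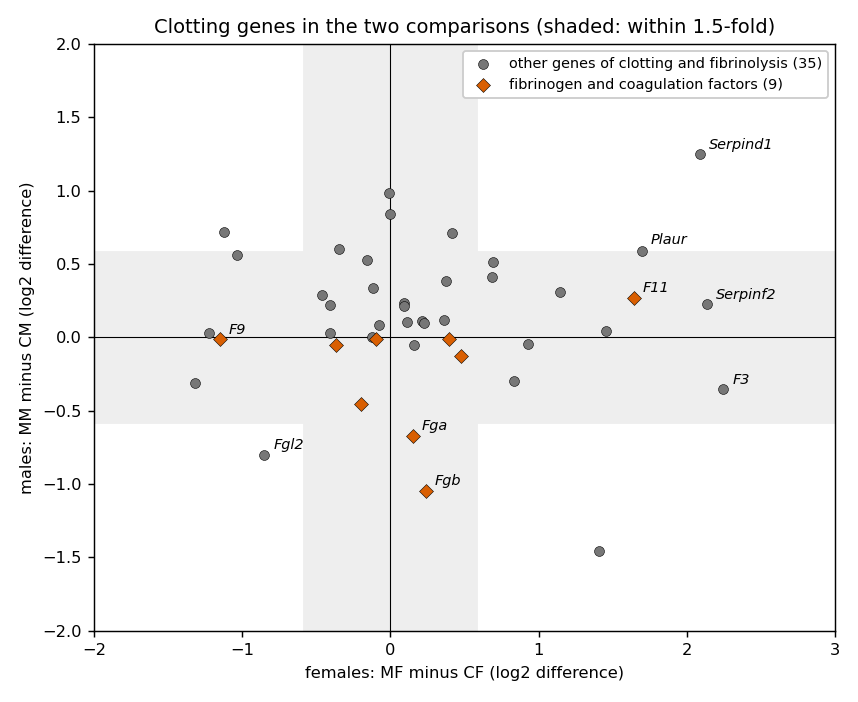
Log2 difference of each gene between MF and CF (horizontal axis) and between MM and CM (vertical axis), diamonds for the 9 fibrinogen and coagulation factor genes and circles for 35 further genes of the system compared in both sexes, with the range within 1.5-fold shaded. *Serpind1* and *Plaur* were higher in both comparisons, *Fgl2* was lower in both, and *F3* was at 2.24 in females and -0.35 in males.

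**Figure D4:**
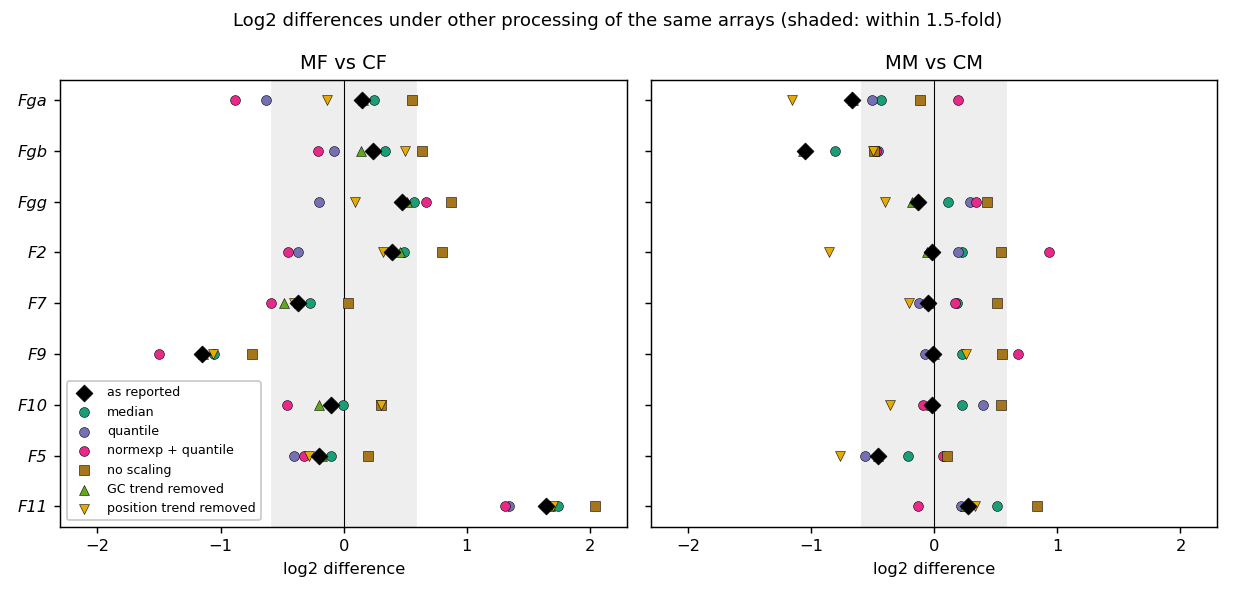
Log2 difference of the 9 genes in each sex as reported (black diamonds) and under 6 other ways of processing the same arrays (coloured symbols), with the range within 1.5-fold shaded. *F9* and *F11* in females kept to 1 side of the shading, whereas *Fga* in males ran from -1.15 to 0.20.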

How the data were processed

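The authors labelled total liver RNA in 1 colour (Cy3) for the Agilent SurePrint G3 Mouse GE 8x60K array, and their scans were read by Agilent Feature Extraction. The processed signal deposited by the authors is a background-subtracted intensity on a linear scale, without normalization between arrays, and equals their table of values in all 62976 spots. A spot flagged as an outlier on 1 array was dropped from all 4. The 75th percentile of each array was subtracted from its log2 signals, repeated spots were averaged, and the brightest probe stood for its gene. A gene was compared where at least 1 array was well above background. A dim side below the limit of its array was raised to it (log2 -6.03 on MF, -5.48 on CF, -5.83 on MM and -4.69 on CM). A dim value above the limit was kept. The difference was then treated as a lower bound. Where it pointed against the array with signal, it was set to 0, and these zeros count in the shares and medians over all genes. limma 3.58.1 (R 4.3.3) was fitted with condition and sex, with Benjamini-Hochberg adjustment. The fit was also run on simulated data with independent noise and no difference between the sexes, which does not measure its power on these arrays. Tables were made with Python 3.11.15 and pandas 2.3.3. The number of arrays limits the precision.

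The members and all gene lists were chosen with earlier results of these data known. Named genes are all members, the genes of the 39-gene list past 1.5-fold the same way in both sexes or past 4-fold in 1 sex, and at most the 3 brightest genes of each other list, with *Alpi*, *Cdx2* and *Cdh17* as exceptions. An item of the list is not reported here and is in none of its counts. Other settings tried were median centring, quantile normalization, normexp correction (offset 50), no scaling, flagged spots kept, the mean over probes, other filters on dim probes, a 2-fold threshold, counts of probes, and trends with GC content and position; *F10* by its other probe and the position trend were chosen after seeing the data. The analysis of probe positions used the array annotation (mm9, NCBI37) and promoters of RefSeq (GRCm38.p6).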

Additional observations from a re-analysis of the deposited data

Results flagged for a closer look

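Among the members and the named genes, 3 were past 1.5-fold in at least 1 sex while the M to C difference had opposite signs in females and males. The male value minus the female value was -0.82 for *Fga*, -1.28 for *Fgb* and -2.60 for *F3* (log2). Over all genes compared, 40.9% were past 1.5-fold either way between MF and CF, and 40.8% between MM and CM. The share of all genes that meets the rule above was not counted, so the 3 are not read as a trait of these genes. With 1 array per group the difference between the sexes was not tested. With quantile normalization the female value of *Fga* was -0.63 and that of *Fgb* was -0.08, the same sign as in males.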

How the results depend on the processing

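No paired analysis was possible because each group has 1 array and no replicate numbers. The number of member genes past 1.5-fold between MF and CF was 2, and became 4 with quantile normalization, 5 with normexp correction and quantile normalization and 5 without scaling (1 higher and 1 lower as reported, then 1 and 3, 2 and 3, and 4 and 1); their median of 0.15 became -0.38, -0.45 and 0.55. Between MM and CM the number was 2, both lower, and became 1 with median centring, 0 with quantile normalization, 1 (higher) without scaling and 1 at a 2-fold threshold. It was 2 with normexp correction, but higher and of other genes (*F2* and *F9*), and 3, all lower (*Fga*, *F2* and *F5*), with the position trend removed; the median of -0.05 became 0.51 without scaling and -0.40 with the position trend removed. The median of the 39-gene list moved from 0.16 to 0.56 in females and from 0.22 to 0.78 in males without scaling, where the median of all genes was itself at 0.34 and 0.50. *Fga* between MM and CM turned from -0.67 to 0.20 with normexp correction. limma made 0 calls in every setting but the unscaled values, where it made 10. The cause was not tested. Of the 81 values of single members under alternatives in each sex, 60 in females and 55 in males moved by less than the technical spread, many of them because the alternative could not change a gene with 1 probe. The number of arrays limits all values.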

Other observations

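Over all genes compared, 19.9% were higher and 21.1% lower past 1.5-fold between MF and CF, and 17.7% and 23.1% between MM and CM. Of 19 hepatocyte secreted proteins, 6 were higher and 1 lower past 1.5-fold between MF and CF (median 0.22), and 1 higher and 5 lower between MM and CM (median -0.24). *Alb*, which encodes albumin, was at 0.22 and -0.33. The 19 genes of the acute phase response had medians of 0.07 and -0.26, with 6 higher and 4 lower in females and 2 higher and 5 lower in males.

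Of 12 liver transcription factors, 5 were higher and 3 lower between MF and CF (median 0.14), against 19.9% and 21.1% of all genes. Between MM and CM, 4 were higher and 1 lower (median 0.29), against 17.7% and 23.1%. *Hnf4a*, a regulator of hepatocyte genes, was 0.64 and 1.01. For 13 genes of megakaryocytes and platelets the medians were 0.16 and 0.11.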
